A study of Mus musculus with 2 samples.

Results

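The visual cycle and retinoid carrier genes described here were 9 genes, Rpe65, Lrat, Rdh5, Rdh10, Rlbp1, Rgr, Rrh, Stra6 and Ttr, taken by symbol from the 31053 genes of the count tables. They were read in single-cell RNA sequencing of mouse eye cups at postnatal day 0 (P0). The control library pooled 3 Myrf fl/fl eye cups, in which part of Myrf is flanked by target sites of the recombinase cre but cre is absent. The mutant library pooled 3 Rx>cre Myrf fl/fl eye cups, in which cre is made in the early eye field, the tissue that gives rise to retinal pigment epithelium (RPE) and neural retina, while blood vessels, mesenchyme and melanocytes of the same eye cups arise outside the eye field and carry the floxed alleles too. Cornea, lens and optic nerve had been removed before dissociation. There was 1 library per genotype, so animal and genotype effects cannot be told apart, no test between genotypes was possible, and every interval below covers counting error only.

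Vision depends on a cycle in which light turns 11-cis-retinal into all-trans-retinal in photoreceptors and the RPE turns it back. In the RPE, retinol is esterified by LRAT, isomerised to 11-cis-retinol by RPE65 and oxidised to 11-cis-retinal by RDH5 and related dehydrogenases, with the product held by the binding protein CRALBP, encoded by Rlbp1. RGR is an opsin of the RPE and Müller glia that handles all-trans-retinal, and RRH, or peropsin, is a related opsin of the RPE. Retinol reaches the RPE from blood on the complex of retinol-binding protein and transthyretin, the product of Ttr, and enters through the receptor STRA6. RDH10 oxidises retinol to retinal and also feeds retinoic acid synthesis in the embryo.

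The deposited counts are unique molecular identifiers (UMIs), each marking 1 captured transcript at its 3′ end, on the GRCm38 (mm10) mouse genome. By GENCODE M21, Rpe65 (ENSMUSG00000028174) lies at chr3:159599175-159625321 on the plus strand, and Lrat (ENSMUSG00000028003) and Rrh (ENSMUSG00000028012) lie on the minus strand of the same chromosome at chr3:82892579-82903973 and chr3:129804408-129822587. Rdh5 (ENSMUSG00000025350) lies at chr10:128913593-128922888, Rlbp1 (ENSMUSG00000039194) at chr7:79374870-79387048 and Rgr (ENSMUSG00000021804) at chr14:37034909-37048964, all on the minus strand. Rdh10 (ENSMUSG00000025921) lies at chr1:16105774-16133734 and Stra6 (ENSMUSG00000032327) at chr9:58063788-58153996, both on the plus strand. All 9 members are protein-coding genes. Rdh5 shares 720 exon bases with Bloc1s1 on the same strand, so reads from the shared part cannot be assigned to either gene. How many Rdh5 reads fall there was not tested, and its counts are uncertain to that extent. Bloc1s1 itself held 719 control and 524 mutant UMIs in RPE-like cells.

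Promoter windows of 4 members are shown because the deleted gene encodes a DNA-binding factor: those of Rgr, Rpe65 and Rlbp1, which held a match to the letters searched, and that of Rdh5 as an example of a window with none. The windows come from RefSeq on GRCm38.p6, run from 250 bases before the RefSeq transcript start to 50 after it, and were searched in full. They are written 5′ to 3′ on the gene's strand and printed up to 6 bases after the start, while the coordinates below are those of the full windows. Capitals mark matches, on either strand, to core letters known for 3 DNA-binding factors: CTGGCAC or CTGGTAC (MYRF), TAATCC (OTX factors, such as OTX2) and CATGTG or CACGTG (MITF). The Rgr window is chr14:37048965-37049264 in full and ends next to the GENCODE start of the gene, the Rpe65 window chr3:159598931-159599230, the Rlbp1 window chr7:79386978-79387277 and the Rdh5 window chr10:128919248-128919547.
Rgr: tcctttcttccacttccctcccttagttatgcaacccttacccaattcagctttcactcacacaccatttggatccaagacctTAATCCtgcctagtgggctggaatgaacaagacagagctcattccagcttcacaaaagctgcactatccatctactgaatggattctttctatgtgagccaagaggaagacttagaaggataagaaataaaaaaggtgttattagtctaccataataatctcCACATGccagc
Rpe65: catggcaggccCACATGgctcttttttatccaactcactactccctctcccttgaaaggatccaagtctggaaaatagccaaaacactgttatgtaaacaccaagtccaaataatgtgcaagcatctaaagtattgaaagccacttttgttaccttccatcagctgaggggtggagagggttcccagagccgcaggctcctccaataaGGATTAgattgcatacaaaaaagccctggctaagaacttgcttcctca
Rlbp1: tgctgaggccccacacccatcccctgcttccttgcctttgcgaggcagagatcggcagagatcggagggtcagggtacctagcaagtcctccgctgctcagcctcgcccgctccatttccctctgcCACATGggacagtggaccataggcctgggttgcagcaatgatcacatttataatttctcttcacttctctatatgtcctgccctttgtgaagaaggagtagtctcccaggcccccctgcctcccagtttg
Rdh5: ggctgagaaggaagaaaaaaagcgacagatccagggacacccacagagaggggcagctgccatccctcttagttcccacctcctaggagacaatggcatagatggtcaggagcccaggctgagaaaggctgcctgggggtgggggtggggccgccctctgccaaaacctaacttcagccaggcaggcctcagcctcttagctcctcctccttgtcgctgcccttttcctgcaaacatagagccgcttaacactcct

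The Rgr window held 1 OTX match and 1 MITF match, at -167 and -5 from the RefSeq transcript start. That start lies upstream of the GENCODE start of Rgr, from which both matches are further away. Unlike the other windows, the Rgr window has last bases that were found in no GENCODE transcript of its gene. In the Rpe65 window the OTX match stood at -42 and an MITF match at -239. Just after the Rpe65 start, at chr3:159599187-159599214, lay the only MYRF match among the members' windows. It reads the same on both strands and is shown in capitals because MYRF is the factor deleted here.
Rpe65 match: tcctacagCTGGTACCAGaactctctct

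Windows of 300 bases were found for 7 of the 9 members, 10 windows in all since Stra6 has several starts. No entry was found for Rdh10 or Ttr. MYRF letters stood in 1 of the 10 windows and in 7.096% of 32851 mouse windows of the same length, OTX letters in 2 of 10 and 7.06%, and MITF letters in 3 of 10 and 20.4%. The windows of Rdh5, Lrat, Rrh and Stra6 held none of these letters. A match is a description of the sequence and not a binding site.

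The control matrix held 14305 barcodes with a median of 4201 UMIs and the mutant matrix 12222 with a median of 4952, of which 12514 and 10851 cells were kept. The libraries shared 59 cell barcode sequences. Clustering without the 9 genes gave 36 clusters in 15 named classes, with 3 clusters unnamed. The class names were rebuilt from marker lists, so any difference from the study may come from them. The RPE-like class held 514 control cells (4.11% of kept cells, exact interval 3.77% to 4.47%) and 203 mutant cells (1.87%, 1.62% to 2.14%) and was 1 cluster, named from 9 of 11 RPE markers. Pmel stood at 13668 and 10650 CPM, the UMIs of a gene per 1000000 UMIs of the class, Otx2 at 670.5 and 545 CPM, the RPE channel gene Best1 at 0.915 and 1.27 CPM, and the melanocyte marker Pax3 at 0.610 and 0 CPM.

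Depth differed within this class. The median depth of RPE-like cells was 2427 UMIs for the control library against 10566 for the mutant, and 316 of the control and 65 of the mutant cells held up to 4000. Mesenchyme markers took a median of 0.293% of the UMIs of a control RPE-like cell and 0.0252% of those of a mutant one, with summed levels of 2702 and 326 CPM over 10 genes, 0 and 1 of them at 0. Lens markers summed to 245 and 38.4 CPM over 7 genes (0 and 3 at 0), ciliary margin markers to 429 and 212 CPM over 7 genes (none at 0), and melanocyte markers to 264 and 123 CPM over 5 genes (0 and 1 at 0), of which Sox10 stood at 78.1 and 4.64 CPM (377 and 324 CPM in melanocyte-like cells), Ednrb at 133 and 70.5 CPM, Kit at 49.4 and 46.0 CPM, Erbb3 at 3.05 and 2.11 CPM and Pax3 as above. Glia markers, a list that also holds Sox10 and Erbb3, summed to 113 and 16.9 CPM over 7 genes (0 and 1 at 0), and muscle markers to 46.7 and 10.98 CPM over 7 genes (0 and 1 at 0). Surface epithelium markers were not lower in the mutant, at 2474 and 2520 CPM. Nor were retinal progenitor (1235 and 1320 CPM), pericyte (254 and 316 CPM) and ganglion markers (50.9 and 80.6 CPM). Astrocyte markers were nearly level (40.9 and 40.1 CPM). The neurogenic, photoreceptor, amacrine, horizontal, endothelial, red blood and white blood lists were lower. The part of these lists, other than mesenchyme, in the members' ratios was not tested. Leaving out the cells with over 0.1% of mesenchyme-marker UMIs, an alternative chosen after seeing the data, left 163 and 175 cells and moved no member's ratio outside its counting interval. Myrf itself stood at 227 CPM (743 UMIs) in control and 27.02 CPM (64 UMIs) in mutant RPE-like cells, 8.38-fold lower (log2 ratio -3.02, -3.46 to -2.70). The sources used here do not give the floxed exons, and a 3′ tag outside them does not report deletion.

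**Figure D1:**
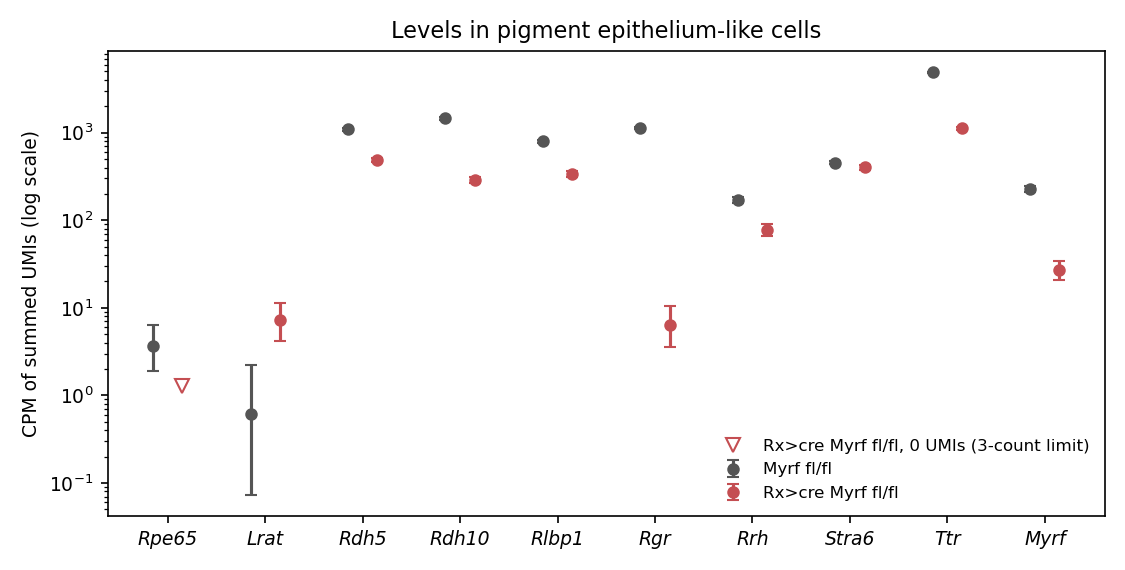
Level of each member and of Myrf in RPE-like cells, as CPM of UMIs summed over cells on a log axis, in the Myrf fl/fl library (grey, 514 cells) and the Rx>cre Myrf fl/fl library (red, 203 cells). Bars are 95% exact Poisson intervals, and the open triangle marks the limit of 3 counts for Rpe65, which had 0 UMIs in the mutant. Rgr shows the widest gap, from 1133 to 6.33 CPM, while Stra6 stood at 456 and 402 CPM.

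Most members had lower levels in mutant RPE-like cells, Stra6 was nearly level and Lrat was higher. By a log2 ratio of mutant over control of -1 or less, with 1 CPM added to each side, 7 of the 9 members were at least 2-fold lower, 1 was at least 2-fold higher (Lrat) and Stra6 was neither. The count of lower members was 4 with each cell thinned to 1000 UMIs, where Rpe65 (0), Rlbp1 (-0.94) and Rrh (-0.54) missed the line, 5 in cells of up to 4000 UMIs and 7 in cells over 4000. Over the 11110 genes with at least 20 UMIs in the class, 5.36% were at least 2-fold lower and 2.47% at least 2-fold higher. The median log2 ratio was -1.25 over the 9 members and -0.02 over those genes. Rpe65 and Lrat, with under 20 UMIs each, are not among the 11110. The members were named for their function with these libraries already described, so the count is a description.

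Among the enzymes, the isomerase gene Rpe65 was barely detected at P0. There were 12 Rpe65 UMIs in 9 of 514 control RPE-like cells, 3.66 CPM (1.89 to 6.39), and 0 in 203 mutant cells, which allows up to 1.27 CPM. Taken against that limit, Rpe65 was at least 2.89-fold lower in the mutant, and the exact interval of the ratio, which also counts the error of the 12 control UMIs, reaches down to 2.01-fold. Outside the class the control library had 2 Rpe65 UMIs in mesenchyme or pericyte-like cells and 1 in retinal progenitor-like cells, and no kept mutant cell had any. The control level in RPE-like cells was 33.7-fold that of the next class, mesenchyme or pericyte-like cells, whose level rests on those 2 UMIs.

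Lrat, which esterifies retinol for storage, went the other way. There were 2 Lrat UMIs in the RPE-like cells of the control (0.610 CPM, 0.0739 to 2.20) and 17 in mutant ones (7.18 CPM, 4.18 to 11.5). The level was 11.8-fold higher in the mutant, a log2 ratio of 2.34 with 1 CPM added, with an interval of the plain ratio from 1.48 to 6.71. The 2-fold call was kept in 15 of 19 alternatives and lost with a mitochondrial limit of 5% (0.85), with 10 CPM added (0.695) and in cells of at most 2000 or 4000 UMIs (0 for both, with no Lrat UMI). All 17 mutant UMIs lay in 12 cells with over 4000 UMIs. With those deep cells thinned to 4000 UMIs each, Lrat was seen in 5 of 138 mutant cells (3.62%, 1.19% to 8.25%) and 0 of 198 control cells, which allows up to 1.52%. The smallest class levels are not ordered: in the control library the lens-like level came from 1 UMI and the endothelial-like level, 0.883 CPM, from 3, and their intervals overlap that of the RPE-like cells.

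Rdh5, the 11-cis-retinol dehydrogenase, and Rdh10 both had far more UMIs. Rdh5 gave 3571 UMIs, 1089 CPM (1053 to 1125), in RPE-like cells of the control and 1154 UMIs, 487 CPM (459.5 to 516), in mutant ones. Its log2 ratio was -1.16 (-1.26 to -1.06), a 2.23-fold lower level. Rdh10 gave 4762 UMIs, 1452 CPM (1411 to 1494), and 684 UMIs, 289 CPM (268 to 311), a log2 ratio of -2.33 (-2.45 to -2.21) and 5.03-fold lower. The 2 dehydrogenase genes thus had ratios whose intervals do not overlap.

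The binding protein gene Rlbp1 was lower by about as much as Rdh5, with overlapping ratio intervals. Its control level in RPE-like cells was 801 CPM (770.4 to 832, 2626 UMIs) and its mutant level 337 CPM (314 to 361, 798 UMIs). That is a log2 ratio of -1.25 (-1.36 to -1.13), 2.38-fold lower. The 2-fold call was kept in 16 of 19 alternatives for Rlbp1, whose ratio nearest 0 was -0.50. For Rdh5 it was kept in 17, with a ratio nearest 0 of -0.78.

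The opsin genes Rgr and Rrh were both lower, by different amounts. Rgr gave 3717 UMIs, 1133 CPM (1097 to 1170.4), in the control class and 15 UMIs, 6.33 CPM (3.54 to 10.4), in mutant ones. The difference was 179-fold (108 to 320.1), a log2 ratio of -7.27, and with 1 CPM added rank 1 from the lowest of the 11110 genes. Genes with no mutant UMI, such as Serpine3 (190 and 0 UMIs) and Gjb1 (162 and 0), have no finite plain ratio. Their order against Rgr rests on the CPM added. Rrh gave 555 UMIs, 169 CPM (155 to 184), and 184 UMIs, 77.7 CPM (66.9 to 89.8), a log2 ratio of -1.11 (-1.37 to -0.88) and 2.18-fold lower. With cells thinned to 1000 UMIs the Rrh ratio was -0.54, under 2-fold and outside that interval.

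Of the genes for retinol delivery, the receptor gene Stra6 was nearly level between the libraries. It gave 1496 UMIs, 456 CPM (433 to 479.9), in control and 952 UMIs, 402 CPM (377 to 428), in mutant RPE-like cells, a log2 ratio of -0.18 (-0.30 to -0.06). In cells of up to 4000 UMIs the Stra6 ratio was -0.07 with an interval from -0.69 to 0.51, which spans 0. The carrier gene Ttr (ENSMUSG00000061808, chr18:20665280-20674321, plus strand) gave 15962 UMIs, 4867 CPM (4792 to 4943), and 2655 UMIs, 1121 CPM (1079 to 1164), a log2 ratio of -2.12 (-2.18 to -2.06) and 4.34-fold lower.

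Because depth differed, the ratios were also taken within cells over 4000 UMIs, 198 control and 138 mutant cells with medians of 13414 and 15770.5 UMIs, and within cells of up to 4000, 316 and 65. In the deep cells the log2 ratio was -7.48 for Rgr, -2.39 for Rdh10, -2.20 for Ttr, -1.32 for Rlbp1, -1.24 for Rdh5, -1.16 for Rrh and -0.25 for Stra6. In the shallow cells it was -5.18 for Rgr, where 2 mutant UMIs leave an interval from -8.30 to -3.39, -2.15 for Rdh10, -1.22 for Ttr, -0.99 for Rlbp1, -0.78 for Rdh5 and -1.86 for Rrh. Every one of these 6 genes was lower in the mutant at both depths, with intervals apart from 0, although Rdh5 and Rlbp1 missed the 2-fold line in the shallow cells.

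Shares of cells with a UMI were compared after each cell was thinned to 1000 UMIs, which left out 106 control and 27 mutant RPE-like cells. Rgr was then seen in 34.1% of 408 control cells (29.5% to 38.9%) and 1.14% of 176 mutant cells (0.138% to 4.04%), against 45.1% and 5.91% before thinning. Photoreceptor-like cells, which are not the known site of Rgr and had medians of 3175 and 3450.5 UMIs, held it in 1.42% and 0.841%, so the mutant RPE-like share was not distinguishable from theirs at this depth. Ttr was seen in 67.2% and 33.5% of thinned RPE-like cells, Rdh10 in 57.8% and 21.02%, Rdh5 in 49.8% and 34.1%, Rlbp1 in 40.4% and 27.8%, and Rrh in 12.5% and 5.11%. Before thinning these shares were 74.5% and 55.7% for Ttr, 70.8% and 46.8% for Rdh10, 66.3% and 67.5% for Rdh5, 61.3% and 69.0% for Rlbp1, and 37.9% and 34.0% for Rrh. For Stra6 the thinned shares were 25.2% (21.1% to 29.8%) and 31.2% (24.5% to 38.7%), with overlapping intervals, and 53.7% and 72.4% unthinned. Photoreceptor-like shares lay between 0.419% and 1.42% for these genes other than Rdh10, which was seen in 6.71% and 4.59% of them. Rpe65 was seen in 1 of the 408 and 0 of the 176 thinned RPE-like cells, which allows up to 1.70%.

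**Figure D2:**
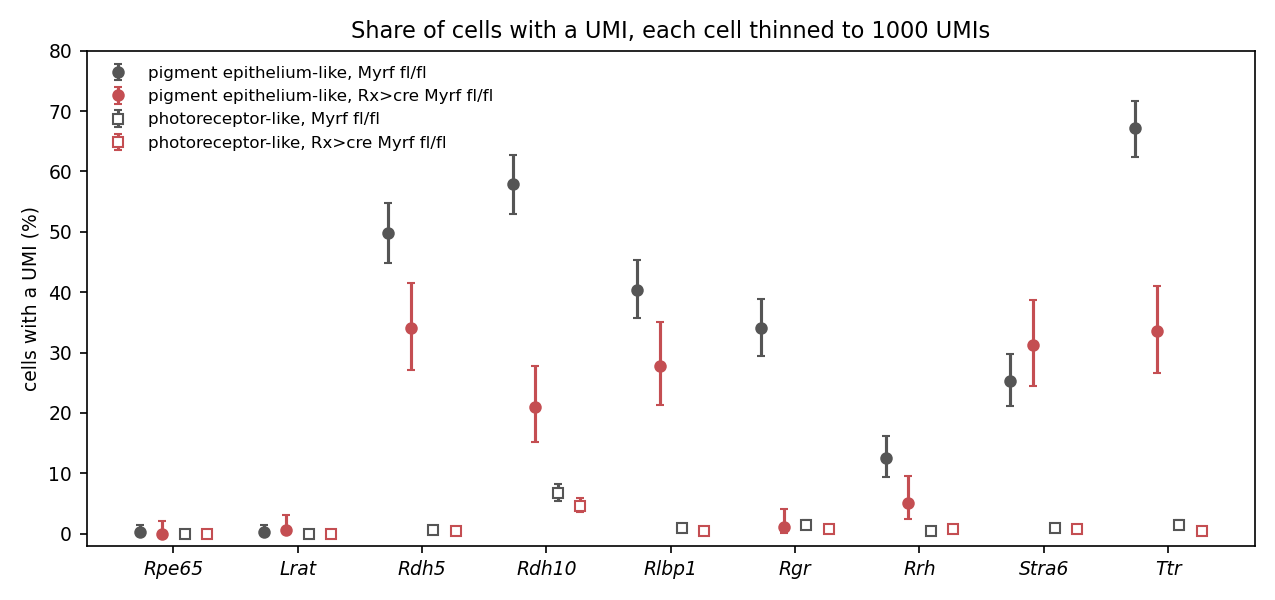
Percent of cells with at least 1 UMI of each member after every cell was thinned to 1000 UMIs, in RPE-like cells (filled circles) and photoreceptor-like cells (open squares) of the Myrf fl/fl (grey) and Rx>cre Myrf fl/fl (red) libraries, with 95% Clopper-Pearson intervals. The Rgr share of mutant RPE-like cells, 1.14%, lies at the height of the photoreceptor-like points, while the Stra6 intervals of both RPE-like groups overlap.

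Single cells showed that the members did not share one pattern even within the control library. In the 198 deep control RPE-like cells, Rdh5 was seen in 89.9%, Rdh10 in 88.4%, Rlbp1 in 90.9%, Stra6 in 89.4%, Ttr in 79.3% and Rrh in 75.3% of cells, but Rgr in 54.0%. The lowest, median and highest Rgr levels of those cells were 0, 107 and 7643 CPM, with quartiles of 0 and 1502 CPM. For Rlbp1 the median was 781 CPM and the quartiles 479 and 1052 CPM. The 10% of cells with the highest counts held 58.1% of Rgr UMIs and 49.4% of Ttr UMIs, against 25.1% of Stra6, 26.2% of Rdh5, 27.3% of Rlbp1 and 27.4% of Rdh10 UMIs.

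With each of these cells thinned to 4000 UMIs, Rgr was seen in 47.0% (39.9% to 54.2%) and Rdh5 in 86.4% (80.8% to 90.8%). The control cells with an Rgr UMI (107 cells, median 15162 UMIs) also held Ttr in 98.1%, Rrh in 91.6% and Stra6 in 98.1% of cases. The 91 deep control cells with none (median 10908 UMIs) held Ttr in 57.1%, Rrh in 56.0% and Stra6 in 79.1%. Depth moved with this split, and its part in the difference was not tested. The 18 deep control cells without an Rlbp1 UMI (median 7811 UMIs) held Rdh5 in 22.2%, Stra6 in 27.8% and Ttr in 11.1%. Only 1 of them held Rgr, and their part in the difference was not tested either. All 7 deep control cells with an Rpe65 UMI, whose median depth was 19326 UMIs, also held Rgr.

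In the 138 deep mutant cells, Rgr was seen in 10 cells (7.25%) with at most 4 UMIs in any of them, against up to 207 UMIs in a control cell. Rdh10 was seen in 58.7% of these cells, with a median of 120.0 CPM against 1534 in the control. Ttr kept a wide spread, with a median of 185 CPM, a highest cell at 15143 CPM and 64.6% of its UMIs in the 10% of cells with the highest counts. Stra6 was seen in 92.0% with a median of 376 CPM, against 447 CPM in the control. Exactly 7 members had a UMI in 44.9% of the deep control cells and in 9.42% of the deep mutant cells. Mutant deep cells with residual Myrf UMIs, 44 of 138, held Rgr in 6 cells and the 94 without in 4, at median depths of 17728.5 and 13234 UMIs.

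**Figure D3:**
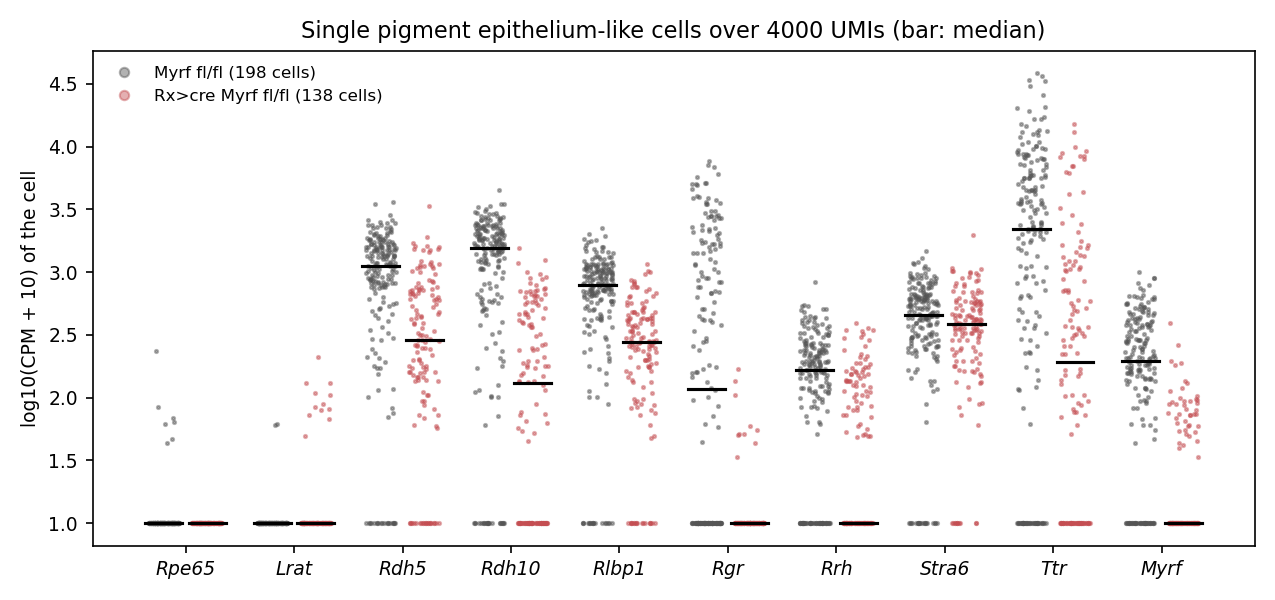
Level of each member and of Myrf in single RPE-like cells over 4000 UMIs, as log10 of CPM plus 10, so that a cell without a UMI sits at 1, for 198 Myrf fl/fl cells (grey) and 138 Rx>cre Myrf fl/fl cells (red), with the median as a black bar. Rgr and Ttr spread over the widest range among control cells, and the Stra6 clouds of both libraries cover about the same range.

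Across cell classes, 8 of the 9 members had their highest level in RPE-like cells in the control library and 7 of 9 in the mutant library, over 15 and 13 named classes of at least 20 cells. The exceptions were Lrat in the control, and Rpe65 (at 0 throughout) and Rrh in the mutant. The share of all genes with their highest level in RPE-like cells was not computed, so these counts are a description. In the mutant the first place of Lrat, over endothelial-like cells at 2.66 CPM (0.863 to 6.20), and that of Rgr were not separated from the next class beyond counting error. In the control, the RPE-like level was 73.3-fold that of the next class for Rgr, 37.4-fold for Rdh5, 31.4-fold for Ttr, 22.8-fold for Rdh10, 19.1-fold for Stra6, 3.06-fold for Rlbp1 and 1.83-fold for Rrh. For Rdh5 and Ttr the next class was white blood-like cells, whose levels rested mostly on 1 cell (29.1 CPM and 4.74 CPM without it for Rdh5, 155 and 13.03 CPM for Ttr), so these 2 folds are not to be ranked among the others. Melanocyte-like cells, which share the pigment genes, had 0 UMIs of Rpe65, Lrat, Rgr and Stra6 in both libraries (30 and 18 cells) and 1 Rdh5 UMI in each.

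**Figure D4:**
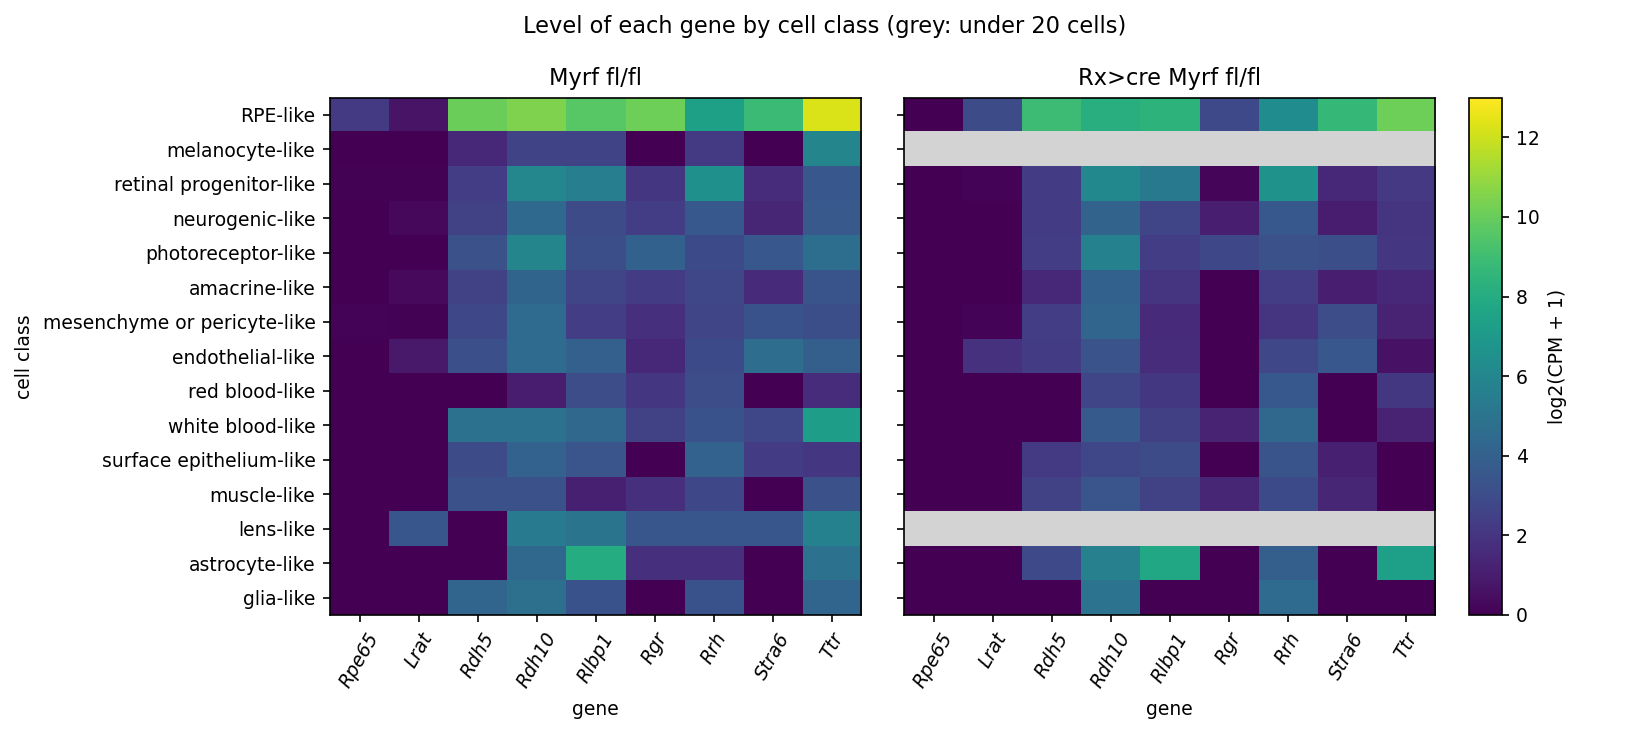
Heat map of log2(CPM + 1) of each member (columns) in each named class (rows), in the Myrf fl/fl library (left) and the Rx>cre Myrf fl/fl library (right), with classes under 20 cells in grey. The RPE-like row is the brightest for Rdh5, Rdh10, Rlbp1, Stra6 and Ttr in both panels, Rgr is bright there in the left panel alone, and Rrh is bright in retinal progenitor-like cells on both sides.

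Rrh was the member read most in the neural retina. Retinal progenitor-like cells held it at 92.3 CPM (88.3 to 96.5, 1969 UMIs) in the control and 103 CPM (99.0 to 107, 2667 UMIs) in the mutant, a log2 ratio of 0.15 (0.07 to 0.24). In RPE-like cells the same gene was 2.18-fold lower in the mutant, so that its order reversed: RPE-like cells stood above progenitor-like cells in the control and below them in the mutant, with intervals apart in both libraries. Neural retina classes together held 71.2% of control and 89.3% of mutant Rrh UMIs, while RPE-like cells held 19.1% and 5.89%. Photoreceptor-like cells had 6.66 and 8.32 CPM.

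Rlbp1 and Rdh10 also had a clear level outside the RPE-like class. Rlbp1 stood at 262 CPM (215 to 316) in 31 control astrocyte-like cells and 224 CPM (188 to 264) in 33 mutant ones, and at 45.9 and 36.6 CPM in progenitor-like cells, a log2 ratio of -0.32 (-0.46 to -0.20) there. The order of the Rlbp1 levels, RPE-like above astrocyte-like above progenitor-like, was the same in both libraries with intervals apart. Rdh10 stood at 63.7 and 66.0 CPM in progenitor-like cells (log2 ratio 0.05, -0.05 to 0.16) and at 60.2 and 52.3 CPM in photoreceptor-like cells (-0.20, -0.46 to 0.05), neighbours whose intervals overlap in the control. Of all Rdh10 UMIs, 64.8% lay in RPE-like cells in the control and 21.1% in the mutant. Stra6 came second in endothelial-like cells, at 23.9 CPM (18.9 to 29.6) and 10.6 CPM (6.49 to 16.4), a log2 ratio of -1.10 (-1.95 to -0.45). In the mutant that second place was not separated from photoreceptor-like cells, at 7.73 CPM (5.50 to 10.6).

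Low counts of Rgr and Ttr were also read in classes not known to make them. Progenitor-like cells had 66 control and 4 mutant Rgr UMIs (3.09 and 0.154 CPM), and mesenchyme or pericyte-like cells 45 and 0 (2.44 CPM and at most 0.262). For Ttr the counts were 221 and 88 in progenitor-like cells (10.4 and 3.39 CPM) and 140 and 16 in mesenchyme or pericyte-like cells (7.60 and 1.40 CPM). RNA set free from other cells gives such low counts, and its part here was not tested. Photoreceptor-like cells stood apart for Rgr: 65 UMIs, 15.5 CPM (11.9 to 19.7), in the control and 31 UMIs in 30 cells, 6.14 CPM (4.17 to 8.72), in the mutant, where the progenitor-like level was 0.154 CPM (0.0420 to 0.395). In the mutant library the Rgr level of photoreceptor-like cells was thus close to that of RPE-like cells, 6.33 CPM, with overlapping intervals, and 60.3% of the 68 Rgr UMIs of kept mutant cells lay in the neural retina.

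Some class levels rested on 1 cell. Of 266 Ttr UMIs in 262 control white blood-like cells, 244 were in 1 cell, and of 50 Rdh5 UMIs in the same class 42 were in 1 cell.

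Other retinoid genes were read from a list of 35, of which 23 had at least 20 UMIs in RPE-like cells. Of these 23, 4 were at least 2-fold lower in the mutant and 1 at least 2-fold higher, beside 5.36% and 2.47% of all genes, and the median log2 ratio was -0.31. Counting intervals lay below 0 for 7, above 0 for 1 and across 0 for 15. The matching shares of intervals over all genes were not computed. The 4 were Aldh1a1, Cyp26b1, Lrp2 and Rbp4, and the 1 was Cyp26a1, which degrades retinoic acid, with 8 and 14 UMIs and an interval across 0 (log2 ratio 1.01, -0.08 to 2.74). Aldh1a1, which makes retinoic acid, had 146 and 16 UMIs (log2 ratio -2.55, -3.56 to -1.97), and Cyp26b1, another degrading enzyme, 33 and 5 (-1.83, -3.97 to -0.89). Lrp2, an endocytic receptor that takes up carrier proteins, had 110 and 25 UMIs (-1.58, -2.36 to -1.03), and Rbp4, the plasma retinol-binding protein that travels with transthyretin, 211 and 71 (-1.08, -1.51 to -0.71). Mesenchyme markers were higher in control RPE-like cells (2702 and 326 CPM), and the alternatives were run on the members only. The part of mesenchyme UMIs in the ratios of the listed genes was therefore not tested.

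Rdh11, another retinol dehydrogenase, had 119 and 50 UMIs (-0.75, -1.29 to -0.29) and Degs1, a desaturase reported to isomerise retinol, 1432 and 618 (-0.74, -0.88 to -0.61). Crabp1, a retinoic acid-binding protein, was the 1 measured gene with an interval above 0, with 15 and 24 UMIs (log2 ratio 0.998 with 1 CPM added, just under the 2-fold line, 0.16 to 2.18). Of 7 measured dehydrogenases and reductases, 6 had intervals across 0, among them Rdh14 at 241 and 168 UMIs (-0.05, -0.34 to 0.24) and Dhrs3 at 189 and 109 (-0.32, -0.68 to 0.02). The transporter gene Abca4, known from photoreceptors and also found in RPE, had 411 and 293 UMIs (-0.02, -0.24 to 0.20).

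**Figure D5:**
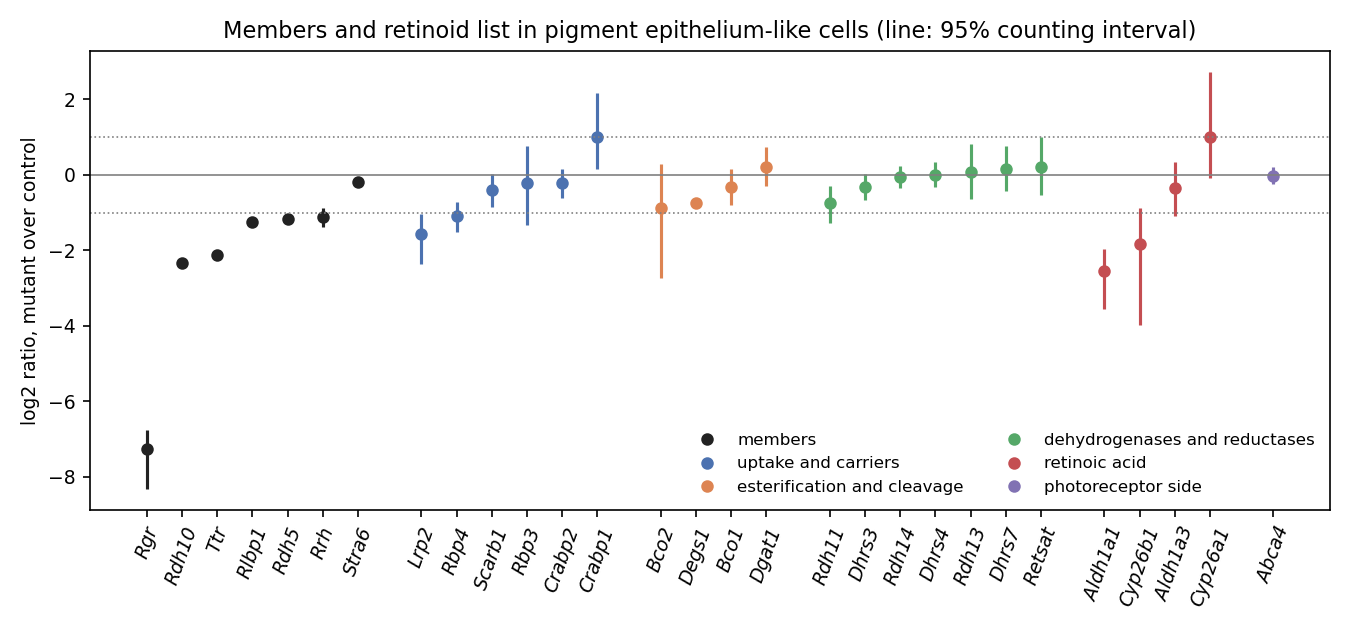
Log2 ratio, mutant over control, in RPE-like cells for the members and listed retinoid genes with at least 20 UMIs, except 1 that is not shown, grouped and coloured by role, with 1 CPM added to each side and vertical lines for the 95% counting interval of the plain ratio. Dotted lines mark 2-fold. Rgr lies lowest at -7.27, 6 of the 7 listed dehydrogenases and reductases have intervals across 0 (all but Rdh11), and Aldh1a1 and Cyp26b1 lie below -1.

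The genes whose levels followed each member most closely were found by Pearson correlation of log2(CPM + 1) over 26 points, 13 classes in each of the 2 libraries, among 14706 genes with at least 100 UMIs. The points share their library and depth, so the values are a description. Nearest to Rgr were Htr3a (r = 0.867), Serpine3 (0.854) and Slc6a20a (0.844), whose RPE-like counts were 474 and 4, 190 and 0, and 122 and 4 UMIs in control and mutant. Nearest to Rpe65 were Gjb1 (0.946, 162 and 0 UMIs), Slc6a20a (0.932) and Htr3a (0.900). Rgr and Rpe65 had Htr3a and Slc6a20a in common, and their own correlation was 0.834, with few Rpe65 UMIs behind it.

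Rdh5 was nearest to Slc16a8 (0.934), a lactate transporter gene of the RPE, Trpm1 (0.903) and Tspan10 (0.900), with RPE-like log2 ratios of -1.56, 0.05 and -0.41. Stra6 was nearest to Dmtn (0.936), Slc22a8 (0.910) and Bpifb5 (0.909), with ratios of 0.41, -0.23 and 0.87. Ttr was nearest to Ptgds (0.923), a prostaglandin synthase gene with 41251 and 13731 UMIs (log2 ratio -1.12), Gdf15 (0.862) and Gm45847 (0.855). Rdh10 was nearest to Gpx4 (0.914), Mpv17l (0.864) and Ddt (0.855), Rlbp1 to Hrasls (0.869), 1600014C23Rik (0.869) and Slc25a21 (0.861), Rrh to Plekha7 (0.782), Ermn (0.778) and Pla2g5 (0.759), and Lrat to Slc16a4 (0.832), Wipf3 (0.829) and Slc22a8 (0.801). Among the members, Rdh5 and Stra6 followed each other most closely (0.842), and Rpe65 and Lrat least (0.111).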

How the data were processed

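Single-cell 3′ RNA was read from 2 mouse libraries, 1 per genotype (79017429 control and 76272867 mutant UMIs). The authors deposited raw UMI counts per gene and barcode, aligned to mm10. The submitters' processing notes name Cell Ranger 7.1.0 and Seurat 4.1.1, while the matrix headers name software 3.1.0. The annotation used for counting is not given in the sources used here.

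Barcodes with at least 200 genes and at most 15% mitochondrial UMIs were kept. The study's limit of 2000 UMIs per cell was only an alternative, since 80.2% and 92.1% of barcodes exceeded it. The 1617 and 1176 barcodes scoring highest in Scrublet (scanpy 1.11.5) were removed as doublets, at expected rates of 11.4% and 9.78%; its own threshold marked 0% and 5.46%. Clustering used Seurat 5.3.0 in R 4.3.3 (anchor integration, 1962 genes, 30 principal components, Louvain resolution 1), without the members, the retinoid list, Myrf and the pigment markers. Clusters were named by the marker list with the largest share of genes seen in at least 10% of cells at 2 times the mean of other clusters, with at least 3 such genes. The naming settings were chosen after looking at the clusters.

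For each class, the UMIs of a library were added up and scaled to 1000000 (CPM). Ratios add 1 CPM, and their 95% intervals are exact conditional intervals of the plain ratio. CPM intervals are exact Poisson, shares exact Clopper-Pearson, and a count of 0 allows 3 counts. Differences were read by a 2-fold rule of size, with no test. Named genes were the members, the 8 listed retinoid genes with the largest ratios and intervals apart from 0 (1 of them is not reported here), and the 3 genes most correlated with each member. Cyp26a1, Rdh14, Dhrs3, Abca4 and the melanocyte markers were added after their values were seen. The members and lists were chosen with earlier results of these data known. On simulated counts with 4-fold changes the rule recovered 100% of changed genes and called 0.669% of unchanged ones in the higher or lower direction. The counts were Poisson draws from the pooled RPE-like profile, without differences between cells, animals or libraries. Both shares thus cover counting error only and are no error rates for the data. Changes near 2-fold were not simulated.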

Additional observations from a re-analysis of the deposited data

Results flagged for a closer look

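Ttr differed between classes in direction, with counting intervals apart from 0 on opposite sides. The log2 ratio of mutant over control was -2.12 in RPE-like cells but 2.44 in astrocyte-like cells (12 and 100 UMIs in 31 and 33 cells) and 1.27 in melanocyte-like cells (33 and 47 UMIs in 30 and 18 cells). The differences between classes were not tested. Of the 100 astrocyte-like UMIs, 76 were in 1 cell, and of the 47 melanocyte-like UMIs, 36 were in 1 cell. With the highest cell of each library left out, chosen after seeing the data, the ratios were 1.11 and -0.47.

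Rdh10 had a log2 ratio of 1.33 in astrocyte-like cells (8 and 31 UMIs) against -2.33 in RPE-like cells. There, 16 of the 31 mutant UMIs were in 1 cell, and the ratio was 0.61 without the highest cells. Rrh had a ratio of 0.15 in retinal progenitor-like cells against -1.11 in RPE-like cells, and 0.16 without the highest cells. Neither difference was tested.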

How the results depend on the processing

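No paired analysis was possible because each genotype has 1 library, and for the same reason no replicate could be left out. The count of members at least 2-fold lower in mutant RPE-like cells was between 4 and 7 over 19 alternatives and within 1.5 times the main count of 7 in 18 of them. It was 4 with cells thinned to 1000 UMIs, where Rpe65 had a ratio of 0, Rlbp1 -0.94 and Rrh -0.54. The counts of members highest in RPE-like cells ranged from 7 to 9 in the control and 5 to 7 in the mutant over 17 alternatives. The Stra6 ratio of -0.18 reversed to 0.04 with at most 2000 UMIs per cell, to 0.024 as a mean of per-cell CPM and to 0.027 in cells with Y-linked and no Xist UMIs; the cause was not tested. Rdh5, Rdh10, Rlbp1, Rgr, Rrh and Ttr stayed below 0 in all 19, with Rgr from -9.88 to -5.18, Rdh10 from -2.84 to -2.09, Ttr from -2.88 to -1.23, Rdh5 from -1.40 to -0.78, Rlbp1 from -1.43 to -0.50 and Rrh from -7.25 to -0.54 (-1.86 to -0.54 without the setting of at most 2000 UMIs, where the mutant had no Rrh UMI). Where a mutant level is at or near 0, as there and at the lower ends for Rgr and Rpe65, the value depends on the CPM added and is no bound. Lrat ranged from 0 to 4.28 and Rpe65 from -5.23 to 0, so few UMIs limit both. With at least 100 UMIs per gene in place of 20, 3.85% of genes were at least 2-fold lower and 1.35% higher. The alternative on mesenchyme markers was chosen after seeing the data.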
